A study of Mus musculus with 16 samples.

Results

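Fibrillar collagens and the glycoproteins that assemble with them make up much of the extracellular matrix that fibroblasts secrete. The 6 windows analysed here lie around 7 matrix genes, and they were examined for summits of H3K4me1, a histone modification found at enhancers and beside promoters. The genes were Col1a1, Col1a2, Col3a1, Col5a2, Col5a1, Fn1 and Sparc, with Col3a1 and Col5a2 in 1 window. Every summit whose mm9 position fell inside a window was kept. This gave 86 of the 81860 summits listed for 3T3 cells and 39 of the 79796 listed for dendritic cells. The windows cover 1100 kb in all.

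The series holds 16 mouse samples, of which 2 were analysed here: H3K4me1 ChIP-seq of unstimulated dendritic cells and of unstimulated 3T3 fibroblasts. The dendritic cells, which take up and present antigen, were grown from bone marrow progenitors held in SCF, IL-3 and IL-6 (20 ng/ml each). The progenitors had been infected with a retrovirus expressing a hairpin that targets the histone demethylase JmjD2d, were selected with 2 mM histidinol, and then differentiated for 4 days in GM-CSF with SCF at 5 ng/ml and for 4 days in GM-CSF alone. 3T3 is an established mouse fibroblast line, kept in standard culture with no hairpin named. No stimulus was given to either. Each cell type is represented by 1 library, so no p-value compares them and intervals cover counting error only. Cell type and hairpin cannot be told apart in any difference below. One label field of the 3T3 sample names dendritic cells, while its title, description and list header name 3T3, and the list was read as 3T3. Neither cell type was checked against marker genes, because the gene table at hand is of another build than mm9. For the same reason the windows are named for the genes in the selection rule, and no summit is placed at a promoter, exon or intron.

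Type I collagen, the main fibre of skin, tendon and bone, is a heterotrimer of the chains encoded by Col1a1 and Col1a2. Type III collagen, from Col3a1, forms fibres in vessels and soft tissue. Type V collagen, from Col5a1 and Col5a2, is incorporated into type I fibres and limits their diameter. Fibronectin, from Fn1, is a cell-binding glycoprotein on which collagen fibres are laid down, and it is made by macrophages as well as fibroblasts. Sparc encodes a secreted collagen-binding glycoprotein. H3K4me1 marks regulatory DNA whether or not the gene beside it is transcribed, so a summit is not a measure of expression.

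The RefSeq promoter table (GRCm38.p6) held entries for 4 of the 7 genes, Col1a2, Col3a1, Col5a1 and Sparc. The unmatched genes were Col1a1, Col5a2 and Fn1. The 250 bases before each annotated start are shown to let the promoters of differently marked windows be read side by side, on the + strand for the collagens and the - strand for Sparc. Capitals mark matches, on either strand, to 6 motifs, whose letters are given below beside their results.
Col1a2: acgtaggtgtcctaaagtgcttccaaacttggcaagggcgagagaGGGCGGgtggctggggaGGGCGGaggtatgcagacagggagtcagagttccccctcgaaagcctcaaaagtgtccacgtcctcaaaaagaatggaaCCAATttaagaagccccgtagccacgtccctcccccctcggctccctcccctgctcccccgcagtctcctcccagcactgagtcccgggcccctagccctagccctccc
Col3a1: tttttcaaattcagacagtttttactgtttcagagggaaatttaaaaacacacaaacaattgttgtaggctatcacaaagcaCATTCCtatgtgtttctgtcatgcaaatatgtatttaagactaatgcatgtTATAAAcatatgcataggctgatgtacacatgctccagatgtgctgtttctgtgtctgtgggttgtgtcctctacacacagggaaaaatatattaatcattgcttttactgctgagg
Col5a1: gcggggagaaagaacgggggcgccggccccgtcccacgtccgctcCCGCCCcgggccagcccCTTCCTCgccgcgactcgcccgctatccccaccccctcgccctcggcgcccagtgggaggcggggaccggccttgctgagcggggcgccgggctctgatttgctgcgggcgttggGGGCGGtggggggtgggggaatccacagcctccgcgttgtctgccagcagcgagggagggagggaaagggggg
Sparc: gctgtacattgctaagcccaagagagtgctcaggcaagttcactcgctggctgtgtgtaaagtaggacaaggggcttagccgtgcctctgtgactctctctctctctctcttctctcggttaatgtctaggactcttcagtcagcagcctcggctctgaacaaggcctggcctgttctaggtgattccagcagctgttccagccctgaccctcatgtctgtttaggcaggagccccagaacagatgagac
The GC content of these sequences was 62% for Col1a2, 35.2% for Col3a1, 76.4% for Col5a1 and 54% for Sparc. Over all 32851 promoters of the table the median was 52.4% and the interquartile range 45.2 to 61.2%, so Col3a1 lay below this range and Col1a2 and Col5a1 above it. The GC box, GGGCGG, was matched in Col1a2 and Col5a1 and in 32.7% of all promoters. The NF-Y motif CCAAT was matched in Col1a2 and in 33.8% of all. Col3a1 held the TEAD motif CATTCC, found in 12.6% of all promoters. It also held TATAAA, the letters of a TATA box, at position -117 from the annotated start, and these letters were found in 12.4%. Col5a1 held GAGGAAG, the core of the motif of the myeloid factor PU.1, found in 10.6%. The AP-1 motif TGANTCA was in none of the 4 and in 6.75% of all promoters. No match overlapped another, and a match describes the letters, not binding. The promoters cannot be placed among the mm9 summits here.

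The matrix windows carried more 3T3 than dendritic cell summits. There were 86 3T3 summits (exact Poisson 95% interval 68.8 to 106) against 39 in dendritic cells (27.7 to 53.3). The ratio of 3T3 to dendritic cell summits was 2.15 times that of the whole lists (95% interval 1.46 to 3.22, taking summits as independent). Against the rest of chromosomes 1, 2, 6 and 11, on which the windows lie, it was 2.18 times (1.47 to 3.26). By window, relative to the whole lists, the ratio ran from 0.620 at Fn1 to 18.5 at Col3a1/Col5a2, where dendritic cells had 1 summit. The intervals do not carry this spread. The windows were chosen with earlier results of these data known, so the excess and its intervals are descriptions. The 3T3 number was the higher one in 5 of the 6 windows, and the exception was Fn1. Of all windows of those lengths, 30 to 35.7% had more 3T3 than dendritic cell summits. The remainder includes windows with equal numbers, empty ones among them. This share is therefore not the odds for a window that holds summits, as all 6 windows do. Beside the windows, flanks of the same length also held more 3T3 than dendritic cell summits, except the higher flanks of Col1a2 and Col5a1. The 3T3 excess was thus not confined to the windows.

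**Figure D1:**
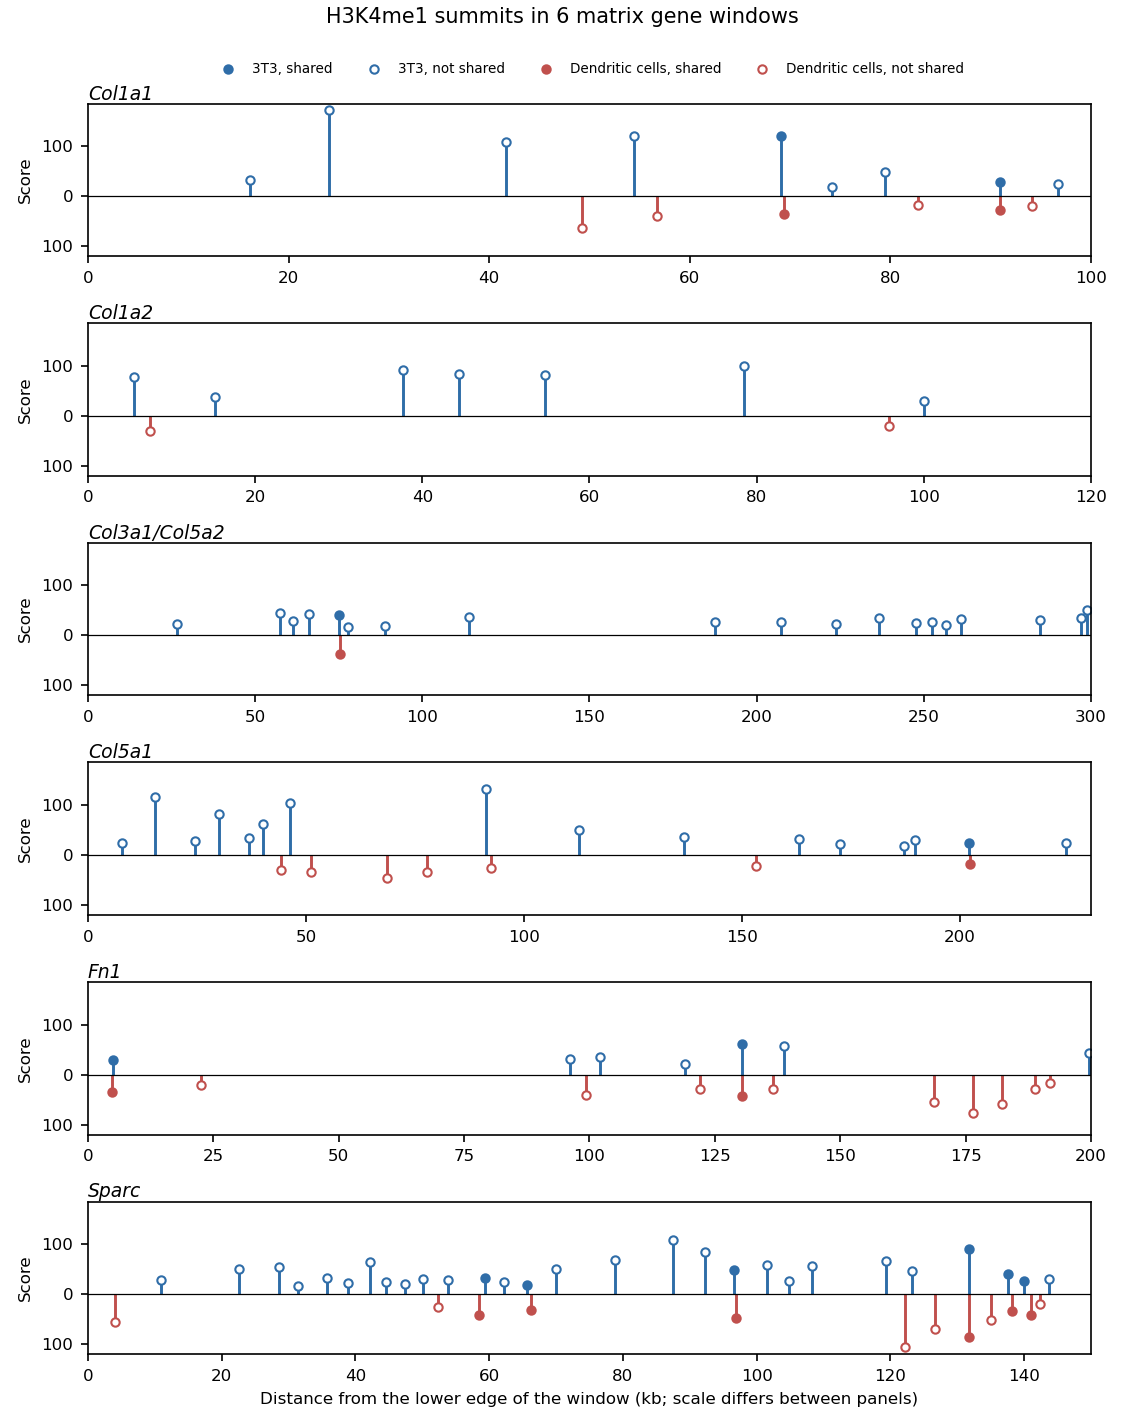
H3K4me1 summits in each window, by distance from its lower edge in kb (horizontal; scale differs between panels) and deposited score (vertical), with 3T3 upward in blue and dendritic cells downward in red. Filled circles are summits with a summit of the other list within 1000 bp; most of the 86 3T3 summits are open, and Fn1 is the panel with more dendritic cell summits, 11 against 7.

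A summit was called shared when the other list had one within 1000 bp. In the matrix windows 74 of 86 3T3 summits were not shared (86.0%, exact Clopper-Pearson 95% interval 76.9 to 92.6), where 70.2% of the whole 3T3 list was not. For dendritic cells 27 of 39 were not shared (69.2%, 52.4 to 83.0), which is close to the 69.4% of that list. Each list had 12 shared summits in the windows, so the higher 3T3 share follows from the higher 3T3 number and is not a separate result. A distance of more than 20 kb to the nearest dendritic cell summit was found for 23 of the 86 3T3 summits (26.7%, 17.8 to 37.4) and for 25% of the list. These were unevenly spread: the 4 collagen windows held 21 among their 51 3T3 summits (41.2%, 27.6 to 55.8), Sparc 2 and Fn1 0. Of the 21, 13 were at Col3a1/Col5a2, where dendritic cells had 1 summit, and the other collagen windows had 2 or 3 each. Of the dendritic cell summits, 3 of 39 (7.69%, 1.62 to 20.9) had no 3T3 summit within 20 kb, against 15.6% of the list.

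Density varied between the windows in both lists. Sparc had the highest 3T3 density, at 18.7 summits per 100 kb (12.4 to 26.98), followed by Col1a1 at 9 (4.12 to 17.1) and Col5a1 at 6.96 (3.98 to 11.3). Col3a1/Col5a2 had 6.33 (3.81 to 9.89), Col1a2 5.83 (2.35 to 12.0) and Fn1 3.5 (1.41 to 7.21). Only the step from Sparc to Col5a1 and the windows below it exceeded the intervals, and the intervals of Sparc and Col1a1 overlapped. The whole 3T3 list averaged 3.10 per 100 kb, below the interval of every window but Col1a2 and Fn1. The intervals do not cover the spread between windows across the genome, so this does not make a window unusual. Of all windows of the same length, 12.4, 20.8 and 18.3% held at least as many 3T3 summits as Col1a1, Col3a1/Col5a2 and Col5a1. For Sparc it was 0.0114%. Dendritic cell density was 8 (4.13 to 14.0) at Sparc, 6 (2.20 to 13.1) at Col1a1 and 5.5 (2.75 to 9.84) at Fn1. It was 3.04 (1.22 to 6.27) at Col5a1, 1.67 (0.202 to 6.02) at Col1a2 and 0.333 (0.00844 to 1.86) at Col3a1/Col5a2, against 3.03 over the list. The Col1a2 value depended on the window edges and was 4.09 with 50 kb added on both sides. Among the 40000 top-scoring summits of the dendritic cell list, 1 of the 7 at Col5a1 and 0 of the 2 at Col1a2 remained. Sparc thus had the highest density in both cell types, and Col3a1/Col5a2 had the lowest in dendritic cells. In dendritic cells, however, the interval of Sparc overlapped that of every window but Col3a1/Col5a2. The interval of Col3a1/Col5a2 overlapped those of Col1a2 and Col5a1.

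**Figure D2:**
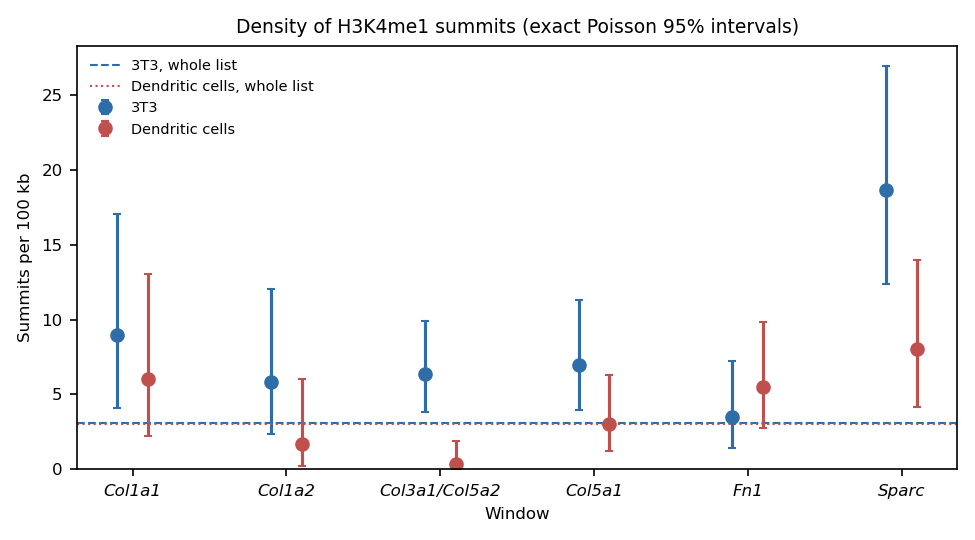
H3K4me1 summits per 100 kb (vertical) in each window for 3T3 (blue) and dendritic cells (red), with exact Poisson 95% intervals as bars and the averages of the whole lists as dashed and dotted lines. Sparc stands highest in 3T3 at 18.7 per 100 kb, and Col3a1/Col5a2 lowest in dendritic cells at 0.333.

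Scores, read as the signal height at each summit, were compared within each list because no scaling between lists is recorded. The 86 3T3 summits had a median score of 34 (interquartile range 26 to 57.8), close to the median of 33 for the whole list. Their upper end was fuller: 16 (18.6%, 11.0 to 28.4) lay in the top 10% of scores, that is above 75, where 9.71% of the list lay. With the top 25% in place of the top 10% the share was 30.2% (20.8 to 41.1), against 24.3% of the list, a difference within the interval. These 16 were unevenly placed, with 5 at Col1a2, 4 at Col1a1, 4 at Col5a1, 3 at Sparc and 0 at Col3a1/Col5a2 and Fn1. Among dendritic cell summits 2 of 39 (5.13%, 0.627 to 17.3) lay in the top 10%, above a score of 79, against 9.8% of the list, and both were at Sparc.

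**Figure D3:**
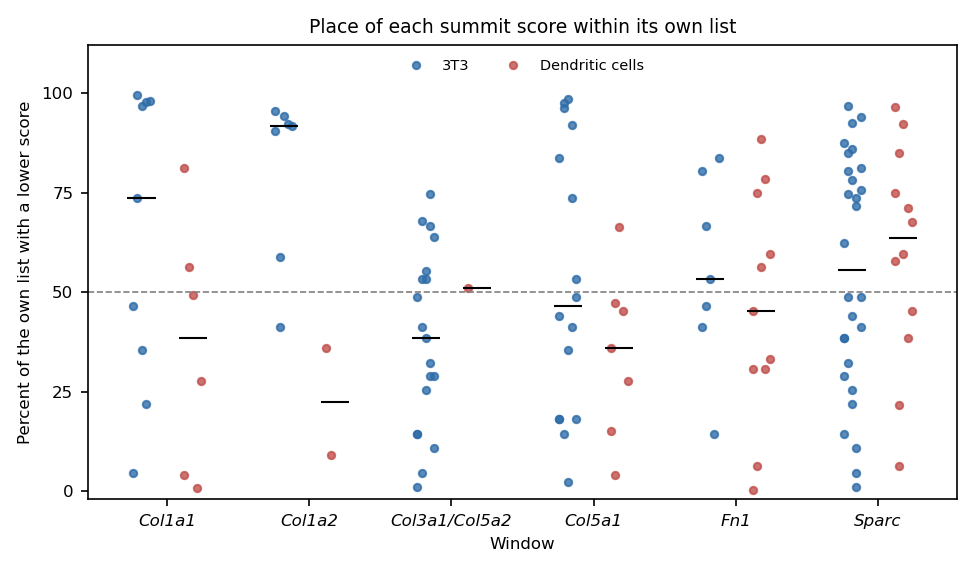
Place of each summit's score within its own list, as the percent of that list with a lower score (vertical), by window, for 3T3 (blue) and dendritic cells (red); black bars are medians and the dashed line is at 50%. Col1a1, Col1a2, Col5a1 and Sparc hold 3T3 summits above 95%, while no 3T3 summit of Col3a1/Col5a2 exceeds 74.7%.

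The Col1a1 window, on chromosome 11 from 94750000 to 94850000, held the highest 3T3 summit of the set. The 9 3T3 summits scored, in order along the chromosome, 32, 172, 109, 120, 121, 19, 49, 28 and 24. The summit of 172 at 94773995 was higher than 99.6% of the 3T3 list, and those of 121 at 94819101 and 120 at 94804481 were higher than 97.9% each. All 4 summits above 100 followed each other, from 24.0 to 69.1 kb from the lower edge. The 6 dendritic cell summits scored 63, 40, 36, 17, 27 and 19, and the highest, at 94799276, exceeded 81.3% of its list. No dendritic cell summit preceded it for 146 kb, a gap that 2.8% of neighbouring dendritic cell summits reach. Shares of gaps, here and below, count gaps and not the length of genome that they cover. The 146-kb gap held 8 3T3 summits with scores up to 179, of which 3 were inside the window. With 9 summits against 6, the numbers themselves differed by less than their intervals (4.12 to 17.1 and 2.20 to 13.1). At least 9 3T3 summits were found in 12.4% of all 100-kb windows.

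At Col1a2, on chromosome 6 from 4400000 to 4520000, most 3T3 summits were high and none was shared. They scored 77, 38, 91, 83, 81, 99 and 30, so that 5 of the 7 were in the top 10%. The highest were 99 at 4478505, 91 at 4437632 and 83 at 4444394, above 95.6, 94.2 and 92.4% of the list. The 2 dendritic cell summits scored 30 at 4407471 and 21, above 35.9% of their list for the first. They lay 88.4 kb apart, at 7.47 and 95.9 kb from the lower edge, and 5 3T3 summits stood between them. A further 228 kb without a dendritic cell summit lay on the lower side, a gap reached by 1.91% of neighbours. At least 7 3T3 summits were found in 25% of all 120-kb windows.

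The Col3a1/Col5a2 window, on chromosome 1 from 45300000 to 45600000, held lower 3T3 summits and 1 dendritic cell summit. The 19 3T3 summits (11.4 to 29.7), a number reached by 20.8% of all 300-kb windows, had scores from 17 to 50 with a median of 29. The highest was 50 at 45598724, above 74.7% of the list, followed by 44 at 45357348 and 43 at 45366208. None reached the top 10%, and 13 had no dendritic cell summit within 20 kb, which makes up most of the 23 such summits in the set. Of all 300-kb windows 64.4% held at least 1 dendritic cell summit and the rest held none, so a number this low is common. The dendritic cell summit at 45375233 scored 37 and lay 22 bp from a 3T3 summit that scored 41. Gaps of 767 and 479 kb without any dendritic cell summit surrounded it, lengths reached by 0.664 and 1.02% of neighbouring pairs in that list. Being shares of gaps, these values do not say how much of the genome is as empty. The gaps of 767 and 479 kb held 23 and 30 3T3 summits, within and beyond the window. An excess of 18 or more 3T3 summits was found in 3.67% of all 300-kb windows. The 3T3 summits fell into 2 groups, separated by 73.4 kb without one.

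At Col5a1, on chromosome 2 from 27700000 to 27930000, 16 3T3 summits (9.15 to 26.0) stood beside 7 in dendritic cells (2.81 to 14.4). The 3T3 scores ran from 18 to 132 with a median of 32. The highest were 132 at 27791327, 115 at 27715309 and 103 at 27746395, above 98.6, 97.5 and 96.2% of the list. All 4 summits of the top 10% were in the lower part of the window, within 91.3 kb of its edge, and from 112.5 kb onward the scores were 49 or less. The dendritic cell scores ran from 19 to 47 with a median of 30, and the highest, 47 at 27768476, lay 22081 bp from the nearest 3T3 summit. One pair was shared, at 27902005 in 3T3, with scores of 23 and 19, low in both lists. The 3T3 summit of 132 missed the shared distance narrowly, with a dendritic cell summit of score 27 at 1171 bp. An excess of at least 9 3T3 summits was found in 9.28% of all 230-kb windows.

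Fn1, on chromosome 1 from 71600000 to 71800000, was the window with more dendritic cell than 3T3 summits. Dendritic cells had 11 (5.49 to 19.7) and 3T3 had 7 (2.81 to 14.4), a difference within the intervals. An excess of at least 4 dendritic cell summits was found in 19% of all 200-kb windows. The 3T3 summits scored 30, 32, 35, 22, 62, 57 and 43. The highest 3T3 summits were 62 at 71730467, 57 at 71738884 and 43 at 71799688, above 83.8, 80.6 and 66.7% of the list. Dendritic cell scores ran from 16 to 76 with a median of 34, and the highest, 76 at 71776571, exceeded 88.5% of that list. It belonged to a group of 5 dendritic cell summits scoring 55, 76, 59, 29 and 16, which fell in a 60.8-kb stretch without a 3T3 summit. Both lists were sparse in the lower part of the window, with gaps of 91.2 kb in 3T3 and 76.7 kb in dendritic cells. Of the 2 shared pairs, that at 71730467 scored 62 in 3T3 and 42 in dendritic cells, 135 bp apart. The other, at 71605047, scored 30 in 3T3 and 34 in dendritic cells, 160 bp apart.

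Sparc, on chromosome 11 from 55150000 to 55300000, had the highest summit density in both cell types, in dendritic cells with overlapping intervals. Its 28 3T3 summits (18.6 to 40.5) were matched or exceeded in 2 of the 17588 tiled windows of 150 kb (0.0114%). This share is a description and not a measure of rarity, because the window was chosen with earlier results known. The 3T3 density was 15.6 per 100 kb with the window widened by 50 kb on both sides and 20.9 with it narrowed by 20 kb. The 28 summits were spaced a median of 3.90 kb apart and no more than 11.5 kb. Scores ran from 17 to 109 with a median of 36.5, and the highest were 109 at 55237497, 90 at 55281819 and 84 at 55242309. The 12 dendritic cell summits (6.20 to 21.0), a number reached by 16.5% of windows, scored from 20 to 106 with a median of 45. The highest, 106 at 55272229, exceeded 96.6% of its list and lay 1016 bp from a 3T3 summit that scored 47. Dendritic cell summits were gathered in the upper part of the window, where 7 lay between 122.2 and 142.3 kb from its edge. In the lower part a dendritic cell gap of 48.3 kb held 10 3T3 summits. The 3T3 excess of 16 was reached by 0.836% of windows.

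At sites marked in both cell types the scores differed little from the usual ratio. The matrix windows held 12 mutually nearest pairs within 1000 bp, 6 of them at Sparc, 2 each at Col1a1 and Fn1, and 1 each at Col3a1/Col5a2 and Col5a1. Their median log2 ratio of 3T3 to dendritic cell score was 0.18 above the median of all 24378 pairs, whose middle range ran from -0.53 to 0.54. Relative to all pairs, 1 of the 12 had a 3T3 score at least 2-fold higher, against 11.9% of all pairs. That pair was at Col1a1, with 121 in 3T3 at 94819101 and 36 in dendritic cells 305 bp away, 3.66-fold higher than the median pair. A dendritic cell score higher by 2-fold or more was found at 0 of 12, against 11.6% of all pairs. The second Col1a1 pair, at 94840943, was 12 bp apart and scored 28 in 3T3 and 27 in dendritic cells. At Sparc the scores of 3T3 and dendritic cells were 33 and 42 at 55209368, 49 and 48 at 55246638, 40 and 34 at 55287602, and 27 and 41 at 55290051. The Sparc pairs thus leaned to neither list, with 3 above and 3 below the median ratio. The largest ratio in favour of dendritic cells, again relative to the median of all pairs, was 1.499-fold, at the Sparc pair with 19 in 3T3 at 55215720 and 31 in dendritic cells. The pair with the highest score in dendritic cells was at Sparc, 80 bp apart and at 55281819 in 3T3, with scores of 90 in 3T3 and 86 in dendritic cells that stood above 94.0 and 92.2% of the lists.

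Flanks of the same length as each window showed whether the marking ended at the window edges. Around Col5a1 the lists crossed over. The lower flank held 31 3T3 summits (21.1 to 44.0) and 9 in dendritic cells (4.12 to 17.1), and the higher flank held 2 (0.242 to 7.22) and 18 (10.7 to 28.4). In the GRCm38 gene table the neighbour on the lower side is Rxra, which encodes a nuclear receptor, and that on the higher side Fcnb, which encodes a ficolin, a lectin of innate immunity. Flank summits were not assigned to any neighbouring gene, and a link to its function was not tested. Around Sparc the higher flank held 17 3T3 summits (9.90 to 27.2) and 2 in dendritic cells (0.242 to 7.22), while the lower flank held 15 (8.40 to 24.7) and 12 (6.20 to 21.0). The neighbours there are Fat2, a giant cadherin, and Atox1, a copper chaperone. The Col3a1/Col5a2 window had 21 3T3 summits (13.0 to 32.1) and 5 in dendritic cells (1.62 to 11.7) on its higher side, and 8 (3.45 to 15.8) and 0 on its lower side. Around Fn1 both lists were denser on the higher side, with 22 and 16 summits, than on the lower side, with 3 and 1. The Col1a2 window had more dendritic cell than 3T3 summits on its higher side, 9 (4.12 to 17.1) against 4 (1.09 to 10.2). At Col1a1 3T3 led on both sides, with 5 against 1 and 9 against 4. The lower and higher neighbours in GRCm38 are Gm11544 and Sgca at Col1a1 and Bet1 and Casd1 at Col1a2. They are Gulp1 and Wdr75 at Col3a1/Col5a2 and Atic and Mreg at Fn1. At Col1a1, Col3a1/Col5a2, Col5a1 and Fn1 the flank with more 3T3 summits held at least as many as the window, whereas at Col1a2 and Sparc the window held more than either flank.

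**Figure D4:**
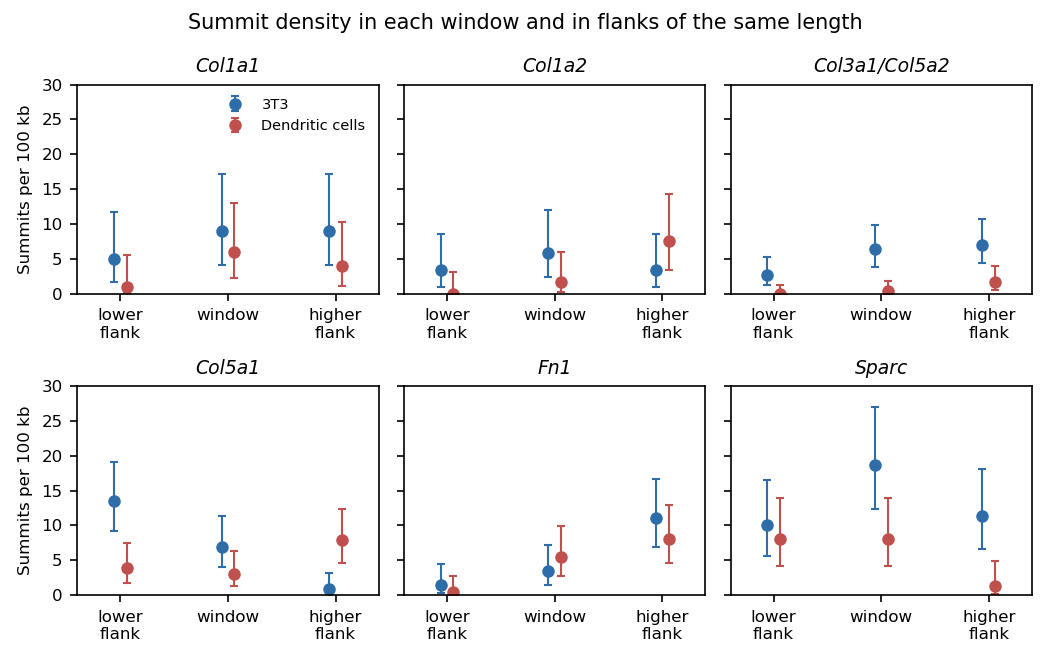
Summits per 100 kb (vertical) in each window and in flanks of the same length at lower and higher chromosome positions, for 3T3 (blue) and dendritic cells (red), with exact Poisson 95% intervals as bars. At Col5a1 the 3T3 number goes from 31 in the lower flank to 2 in the higher one while the dendritic cell number goes from 9 to 18.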

How the data were processed

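H3K4me1 ChIP DNA from formaldehyde-fixed nuclei was sheared to about 300 bp, amplified for 18 cycles and sequenced as single 36-bp reads, per the labels' protocols. Reads were aligned with Bowtie to mm9 and peaks called with MACS 1.4, per the submitters' processing notes. The cut-off of MACS was 1e-04 and the shift was 150 bp, per the file headers. The header word "nomode" was read as no fragment model, and no local background was used. The sources used here do not say whether input DNA entered the calling. Each deposited list gives 1-bp summit positions, each with a score. The header leaves the score unnamed, and it was read as the signal that MACS computed before the authors deposited the list, the pileup height at the summit in reads. Read totals are not given, so the depth is unknown.

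Windows were taken from the selection rule. Members, window edges and lists were chosen with earlier results of these data known. Summits named are, per window, the 3 highest in 3T3, the highest in dendritic cells, and every mutually nearest pair. Each window was set beside all windows of its length tiled along 20 chromosomes (1 to 19 and X), unsequenced stretches included. The tiling is a fixed grid and the window edges were chosen, so these shares of windows are descriptions and not measures of rarity. Further matrix genes had been planned and were not counted, for want of an mm9 annotation. The overlap computation was tested on simulated data. The alternatives were other shared distances, the 40000 top-scoring summits of each list, merging of summits within 1000 bp, and wider or narrower windows. Positions are 1-based. The software was Python 3.11.15 with pandas 2.3.3, scipy 1.17.1, numpy 2.4.6 and, for figures, matplotlib 3.10.9.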

Additional observations from a re-analysis of the deposited data

How the results depend on the processing

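With the 40000 top-scoring summits of each list the windows held 43 3T3 and 18 dendritic cell summits, fewer because fewer summits entered, and the ratio relative to the lists was 2.39. The ratio lay between 1.72 (without the Col3a1/Col5a2 window) and 2.75 (without Fn1) over all alternatives tried, and was 2.61 with windows narrowed by 20 kb. The share of 3T3 summits not shared was 90.7% at 500 bp and 80.2% at 2000 bp. That of dendritic cells was 79.5 and 56.4%. In each setting that changed the summits or the windows, 5 windows had more 3T3 summits and Fn1 more dendritic cell summits. Widening by 50 kb raised the dendritic cell density at Col1a2 from 1.67 to 4.09 per 100 kb. No paired analysis was possible because each cell type has 1 library, and for the same reason no library could be left out. Depth being unknown, the absence of a summit is the absence of a call.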
